A study of Rattus norvegicus with 6 samples.

Results

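Splicing factors were followed across livers of male Wistar rats given a control diet (15P) or a low-protein diet of equal energy (5P), on 6 Affymetrix arrays, 3 per diet. The members were all probe sets with exactly 1 gene symbol in the platform annotation that named a gene of the Srsf, Hnrnp, Rbm, Snrp, Sf3a, Sf3b, Prpf, U2af, Srrm or Tra2 families, or Tardbp, Bclaf1 or Son. They came to 180 probe sets of 103 genes, out of 31042 probe sets tested. Per the labels the rats were 6 weeks old, weighed near 150 g at purchase and were caged singly. All had 4 days of pellets and 4 days of training on 15P in a daytime meal window before the diets were split. Each then ate 15P or 5P for 8 hours, and livers were taken after 16 hours of starvation, so both groups were fasted. Nothing in the labels ties an array to its own rat or speaks of pooling, so p-values here measure the spread between these samples, which may be technical. The tissue is whole liver, and 7 of the 8 listed hepatocyte markers, Alb and Ttr among them, were measured and lay above the median probe set.

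Pre-mRNA splicing is carried out by the spliceosome, whose small nuclear ribonucleoproteins (snRNPs) pair RNA with core proteins such as the Sm proteins (Snrp genes) and the U2-bound SF3A and SF3B complexes. Regulators bind the transcript and steer which sites are used: SR proteins (Srsf genes) mostly favour exon inclusion, and heterogeneous nuclear ribonucleoproteins (hnRNPs) often oppose it. Many of these regulators control their own messages through alternative exons or introns that lead to RNA decay or nuclear retention, so that one gene gives several RNA forms. A 3' array reads such a gene through several probe sets, each a set of short probes against one stretch of RNA.

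Splicing factor probe sets were lower in low-protein livers more often than probe sets at large, by modest amounts, and 1 passed the test over the whole array. Of 180 members, 52 were lower and 10 higher at an unadjusted p under 0.05 (limma, two-sided), which is 28.9% and 5.56%. Among all 31042 probe sets the shares were 7.58% lower and 7.83% higher. The 52 lower probe sets belonged to 31 of the 103 genes. Tardbp, Bclaf1 and Son were added to the member rule by name with earlier results of these data known, and the shares include them. Their lower probe sets were 3 of 3, 2 of 2 and 3 of 5. After Benjamini-Hochberg adjustment over all probe sets, 1 member fell, an Hnrnpu probe set, and none rose, against 0.132% of all probe sets past the same threshold (0.0966% lower and 0.0354% higher). The log2 fold changes of the members, low protein minus control, ran from -0.97 to 0.65 with a median of -0.09, where the median of all probe sets was 0.03. In 54 members all 3 low-protein arrays lay below all 3 control arrays, which is 30% against 9.12% of all probe sets, and in 15 they lay above, 8.33% against 12.5%. Because members of one gene share transcripts and all share 6 arrays, these shares are a description and carry no test.

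The lower share did not rest on dim probe sets or on 1 array. Among the 148 members brighter than the median probe set, 48 were lower and 6 higher at an unadjusted p under 0.05, or 32.4% and 4.05%, where all probe sets of that brightness gave 12.4% and 8.79%. The other 32 members had 4 lower and 4 higher, 12.5% each, where all dimmer probe sets gave 2.81% and 6.87%. The median of those 32 was 0.05, against 0.06 for all dimmer probe sets. A single cut at the median matches brightness only coarsely. With the brightest probe set standing for each gene, 23 of 103 genes were lower and 5 higher, 22.3% and 4.85% against 7.98% and 8.34% of all 14217 genes. Leaving out each array in turn gave 45 to 61 lower members, or 25% to 33.9%, where all probe sets gave 5.81% to 8.18% in the same fits. The most came without low-protein replicate 2, at 33.9% against 6.86%. The higher count ran from 5, without control replicate 2, to 11. Low-protein replicate 2 had the smallest deviation of the 3 low-protein arrays, with a mean over all members of -0.06 relative to the control mean. Replicates 1 and 3 stood at -0.16 and -0.21, and the 3 control arrays ran from -0.04 to 0.03.

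**Figure D1:**
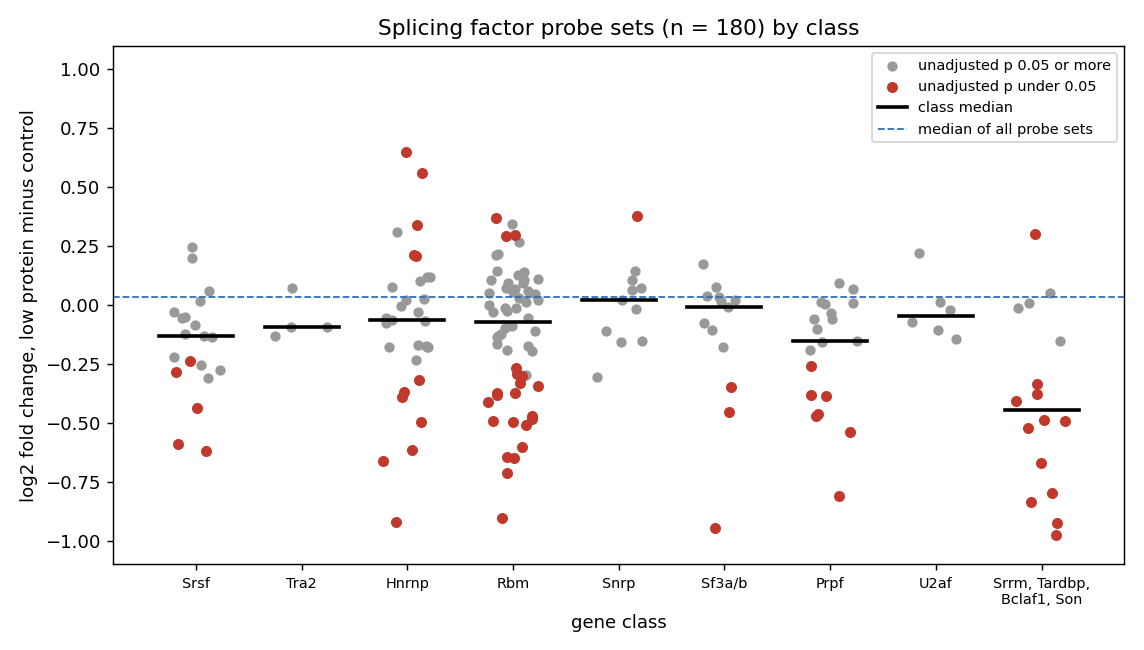
Log2 fold change (low protein minus control) of each of the 180 member probe sets, by gene class. Red points have an unadjusted p under 0.05, black bars are class medians and the dashed line is the median of all probe sets, 0.03. The mixed class of Srrm, Tardbp, Bclaf1 and Son has the lowest median, -0.45, and the Snrp median is 0.02.

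Several measures of the arrays themselves moved with diet. Median intensity was 33.26 to 33.57 on control arrays and 33.74 to 34.24 on low-protein arrays, without overlap. The 75th percentile was 124.5 to 131.2 on control arrays and 121.6 to 126.3 on low-protein arrays, with overlap. On the first principal component (36.9% of the variance) control replicate 3 scored -10.11, between control replicates 1 and 2 (-26.91 and -22.45) and the low-protein arrays (17.34 to 22.59). The 3'-to-5' ratio of the GAPDH control probe sets, a sign of RNA length, was 0.27 to 0.37 (log2) in controls and 0.38 to 0.52 in low-protein livers. That of hexokinase was 1.06 to 1.30 against 1.35 to 1.48, with 5' readings of 2.71 to 2.93 that are near the bottom of the scale, and that of beta-actin overlapped, at 1.37 to 1.61 and 1.41 to 1.60. The summed intensity of 5 measured red blood cell markers was 2865 to 3123 in controls and 4053 to 4323 in low-protein livers, with 2 of 5 (Hbb and Alas2) higher at an unadjusted p under 0.05. That sum is nearly all Hbb, which had a mean of 11.75 (log2) where the others had 4.37 to 5.64. Slc4a1, Ahsp and Epb42 had log2 fold changes of 0.14, 0.32 and -0.06, with groups that overlapped. The 7 hepatocyte markers summed to 91730 to 94470 and 89780 to 91530, with 1 (Cps1) lower at an unadjusted p under 0.05. The 5 bile duct markers summed to 258.9 to 418.9 and 206.6 to 286.4, with 2 lower. Most of that sum is Epcam, with a mean of 7.55 (log2) where the others had 2.85 to 5.29. The hepatocyte ranges did not overlap and the bile duct ranges did. Ranges overlapped too for 6 macrophage, 6 endothelial, 8 stellate, 7 lymphocyte and 4 neutrophil markers, of which 1 (Ncf1, a neutrophil marker) was higher at an unadjusted p under 0.05. The part of these measures in the splicing results was not tested. In whole tissue, fewer cells of a type and less RNA per cell cannot be told apart.

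The upstream sequences of 3 members, Hnrnpu, Tardbp and Snrpe, show 3 of the 5 motifs counted over the whole set. Hnrnpu was lower at 1 of its 3 probe sets and Tardbp at all of its own, and Snrpe, an Sm protein gene, differed little. The sequences are the 250 bases before the RefSeq transcript start in build GRCr8, 5' to 3' on the gene's strand. Capitals mark matches, on either strand, to CCAAT (the CCAAT box), GGGCGG (a GC box), CCGGAAG (an ETS-type motif), TGACGTCA (a cyclic AMP response element) or TGATGNAA (an ATF4-type element).
Hnrnpu (chr13:92618581-92618830, minus strand): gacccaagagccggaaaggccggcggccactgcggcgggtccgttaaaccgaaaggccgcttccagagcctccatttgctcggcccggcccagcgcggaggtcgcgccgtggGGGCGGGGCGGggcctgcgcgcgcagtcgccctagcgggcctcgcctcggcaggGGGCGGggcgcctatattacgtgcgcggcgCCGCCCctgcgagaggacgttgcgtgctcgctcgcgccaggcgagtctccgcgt
Tardbp (chr5:164345205-164345454, minus strand): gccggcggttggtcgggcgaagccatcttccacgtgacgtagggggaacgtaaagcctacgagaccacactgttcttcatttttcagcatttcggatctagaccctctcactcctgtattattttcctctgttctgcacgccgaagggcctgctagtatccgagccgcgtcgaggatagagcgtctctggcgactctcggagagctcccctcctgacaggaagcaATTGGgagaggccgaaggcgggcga
Snrpe (chr13:47609252-47609501, minus strand): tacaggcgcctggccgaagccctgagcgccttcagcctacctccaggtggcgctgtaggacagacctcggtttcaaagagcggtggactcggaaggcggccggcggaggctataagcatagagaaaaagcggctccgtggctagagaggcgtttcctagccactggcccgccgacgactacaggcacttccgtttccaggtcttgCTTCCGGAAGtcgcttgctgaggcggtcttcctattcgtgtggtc
Hnrnpu has 4 GGGCGG matches, of which the first pair share a base, Tardbp has 1 CCAAT match, and Snrpe has 2 overlapping CCGGAAG matches, 1 per strand. None of the 3 holds TGACGTCA or TGATGNAA.

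Over the 92 member genes with a RefSeq promoter, 49 held GGGCGG, 44 CCAAT and 21 CCGGAAG, or 53.3%, 47.8% and 22.8%, where all 27457 promoters of the same length gave 32.4%, 34.3% and 7.74%. TGACGTCA was in 2 members and TGATGNAA in 1, at 2.17% and 1.09% against 1.70% and 3.27% of all promoters. CCGGAAG was spread unevenly: it was in 7 of 18 core genes (Snrp, Sf3a and Sf3b) and in 2 of the 28 genes with a lower probe set, Rbm15 and Srsf11, against 19 of the other 64. GGGCGG and CCAAT were in 17 and 15 of those 28 and in 32 and 29 of the other 64. A match is a stretch of letters and says nothing of a factor bound there, and these counts were not tested.

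Among hnRNPs, Hnrnpu fell at 1 probe set and Hnrnpa1 differed in direction between its probe sets. hnRNP U, also called scaffold attachment factor A, binds nuclear RNA and chromatin. Its probe set 1372823_at read 7.76, 7.75 and 7.40 (log2 intensity) in controls and 6.86, 6.59 and 6.70 in low-protein livers. Every low-protein array lay below every control. The means were 7.64 ± 0.20 and 6.72 ± 0.14 (SD, n = 3 each), a 1.89-fold fall (log2 fold change -0.92, SE 0.126, limma adjusted p = 0.0496). That call sits at the threshold: it held in 6 of 15 alternatives, with an adjusted p from 0.0234 to 0.141, and in the leave-one-out fits it held without control replicate 3 (-1.04, adjusted p = 0.0234) and not without any of the other arrays. The other probe sets of Hnrnpu, 1370170_at and 1370171_at, had log2 fold changes of -0.18 (95% interval -0.48 to 0.12) and -0.17 (-0.42 to 0.09), with groups that overlapped. The interval of the fallen probe set, -1.21 to -0.63, did not reach theirs.

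Hnrnpa1 encodes an abundant hnRNP that counters SR proteins at many exons. Probe set 1372693_at read 9.21, 9.15 and 8.91 in controls and 8.47, 8.56 and 8.40 in low-protein livers, lower on all 3 (log2 fold change -0.61, SE 0.106, adjusted p = 0.07). Probe set 1375612_at read 6.43, 6.24 and 6.02 against 6.76, 7.13 and 6.76, higher on all 3 (0.65, SE 0.142, adjusted p = 0.104). Probe set 1387872_at read 7.96, 7.79 and 7.75 against 8.21, 8.74 and 8.23, also higher on all 3 (0.56, SE 0.15, adjusted p = 0.152). None of the 3 passed over the array; without control replicate 3 the first did (-0.70, adjusted p = 0.046, 0.046 to 0.194 over the alternatives). Hnrnpa1 was the only 1 of the 44 genes with several probe sets that had an unadjusted p under 0.05 in both directions. Mammalian genomes hold many processed copies of this gene, and whether its probe sets also read such copies was not tested.

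Hnrnpa2b1, whose protein binds many messages and microRNA precursors, had 1 probe set lower, 3 near 0 and none higher. Probe set 1373540_at read 9.05, 8.94 and 8.61 against 8.21, 8.43 and 7.98 (-0.66, SE 0.15, adjusted p = 0.111), and the groups did not overlap. Its other probe sets had -0.08, -0.03 and -0.0037, each with an interval that spans 0. Hnrnpm, read by 1 probe set, had 8.37, 8.29 and 8.56 against 7.95, 8.06 and 8.03 (-0.39, SE 0.0985, adjusted p = 0.141). In all, 7 of the 31 hnRNP probe sets were lower and 5 higher at an unadjusted p under 0.05, and their median log2 fold change was -0.06. The 5 higher ones were 2 of Hnrnpa1, 2 of the 5 of Hnrnpa3 (0.21 both) and 1 of the 3 of Hnrnpdl (0.34, below the median probe set).

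**Figure D2:**
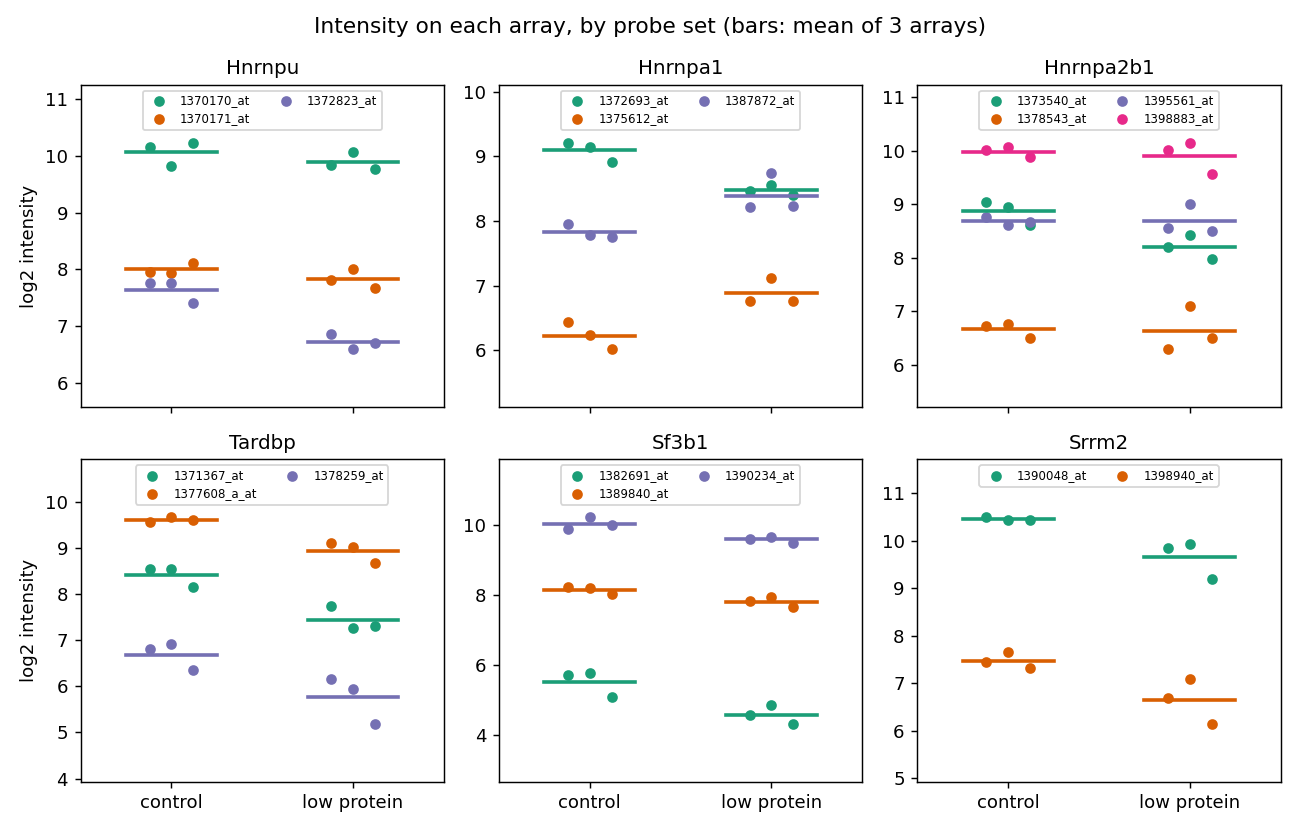
Log2 intensity on each array for every probe set of 6 genes; points are arrays, bars are means of 3, and colours are probe sets. All probe sets of Tardbp, Sf3b1 and Srrm2 are lower in low-protein livers, 1 probe set of Hnrnpu and of Hnrnpa2b1 is lower while the others overlap, and those of Hnrnpa1 move in both directions.

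Among SR proteins, probe sets of Srsf11, Srsf2, Srsf3 and Srsf7-ps4 were lower. Of 20 Srsf probe sets, 5 were lower and none higher at an unadjusted p under 0.05, and none passed after adjustment with limma. Srsf11, an SR-related protein, read 9.24, 9.27 and 9.14 in controls and 8.55, 8.77 and 8.56 in low-protein livers at 1368212_at, with no overlap (-0.59, SE 0.096, adjusted p = 0.0603; 0.0494 with array weights, up to 0.184 elsewhere). Its second probe set had -0.31. Srsf2, a classical SR protein, was lower at both of its probe sets, by -0.28 (SE 0.0887) and -0.24 (SE 0.0839), again with no overlap. The probe set of Srsf3, the smallest SR protein, read 2.61 to 3.34, below the 25th percentile of all probe sets (3.77), and had -0.44 (SE 0.12). Srsf7-ps4 is a pseudogene of Srsf7 by its name and the RefSeq table, and 1 of the 180 members not listed as protein coding. It read 6.37, 6.48 and 6.48 against 5.94, 5.70 and 5.82 (-0.62, SE 0.0951, adjusted p = 0.0551; 0.047 with a robust prior variance and up to 0.157 elsewhere). Srsf7 itself had -0.13 (interval -0.33 to 0.07). Srsf1, Srsf4, Srsf5, Srsf6, Srsf9 and Srsf10 had 13 probe sets from -0.28 to 0.25 and none reached an unadjusted p under 0.05. Tra2a and Tra2b, SR-like activators of exon inclusion, had 4 probe sets from -0.13 to 0.07, and no pair of groups separated.

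RBM genes, a heterogeneous set named for an RNA-binding motif, were the largest class. Of 60 probe sets of 34 genes, 19 were lower and 3 higher at an unadjusted p under 0.05 (31.7% and 5%), with a median of -0.07. Rbm26 and Rbm27, related zinc-finger proteins that act in nuclear RNA decay, were lower at all 6 of their probe sets. At 1393678_at Rbm26 read 6.51, 6.55 and 6.57 against 6.07, 6.05 and 6.05, with no overlap (-0.49, SE 0.0798, adjusted p = 0.0603), and its other probe sets had -0.49 and -0.90. Rbm27 had -0.49, -0.47 and -0.34, and its first, 1389981_at, read 7.10, 7.28 and 7.07 against 6.76, 6.64 and 6.57 (SE 0.0983, adjusted p = 0.0876). Its last, with a mean of 3.98, lay below the median probe set.

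Rbm39, a U2AF-related coactivator of splicing, was lower at all 5 probe sets, from -0.65 to -0.27, the last with groups that overlapped. At 1395092_at it read 7.13, 7.12 and 6.85 against 6.34, 6.63 and 6.18 (SE 0.136, adjusted p = 0.0971). Rbm47, which also takes part in apolipoprotein B RNA editing, read 9.39, 9.36 and 9.35 against 8.97, 9.02 and 8.89 at 1380334_at (-0.41, SE 0.0833, adjusted p = 0.0907), and its second probe set had -0.19. Rbm5, a regulator of apoptosis-related exons, had -0.30, -0.65 and -0.71, of which the latter pair had an unadjusted p under 0.05. The last, with a mean of 4.62, lay below the median probe set, and its groups overlapped. The 3 higher RBM probe sets were 1 each of Rbm17 (0.37), Rbm44 (0.30) and Rbm24 (0.29). That of Rbm17, with a mean of 3.72, lay below the 25th percentile of all probe sets (3.77), and that of Rbm44 below the median one. The groups overlapped for Rbm24, whose other probe sets had 0.05 to 0.14. The other 2 probe sets of Rbm17 had -0.13 and -0.19.

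The mixed class of Srrm genes with Tardbp, Bclaf1 and Son had the largest share of lower probe sets among the 9 classes. Of their 16 probe sets, 11 were lower (68.8%) and 1 higher at an unadjusted p under 0.05, with a median of -0.45. It is not a family: Tardbp, Bclaf1 and Son were added to the member rule by name, with earlier results of these data known. Lower probe sets were 3 of 3 for Tardbp, 2 of 2 for Bclaf1 and 3 of 5 for Son. For Srrm2, Srrm1 and Srrm3 they were 2 of 2, 1 of 3 and 0 of 1. Tardbp, which encodes TDP-43 and limits its own message, was lower at all 3 probe sets without overlap. At 1371367_at it read 8.55, 8.55 and 8.15 against 7.74, 7.27 and 7.32 (-0.97, SE 0.159, or 1.96-fold, adjusted p = 0.0603). It passed with a robust prior variance (0.048) and without control replicate 3 (-1.11, 0.046), and reached 0.184 at most. At 1377608_a_at it read 9.56, 9.67 and 9.61 against 9.12, 9.02 and 8.68 (-0.67), and the third probe set had -0.93.

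Srrm2 and Son, large SR-repeat proteins that form the core of nuclear speckles, were also lower. Srrm2 read 10.49, 10.44 and 10.43 against 9.83, 9.93 and 9.20 at 1390048_at (-0.80, SE 0.177, adjusted p = 0.105), and low-protein replicate 3 was the lowest. Without that array the difference was -0.57. The second probe set had -0.83. Son was lower at 3 of 5 probe sets, led by 1398989_at with 8.86, 8.69 and 8.77 against 8.36, 8.30 and 8.09 (-0.52, SE 0.102, adjusted p = 0.0858), while the other 2 had -0.15 and -0.01. Bclaf1, an SR-related factor bound to mRNPs, had -0.49 at both probe sets, and 1388752_at read 9.35 to 9.61 in controls and 8.93 to 9.05 in low-protein livers. Srrm1, a splicing coactivator, had -0.34, 0.05 and 0.01, with groups that overlapped at each. Srrm3, known mainly from neurons, was the 1 higher probe set, at 0.30 and below the median probe set.

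**Figure D3:**
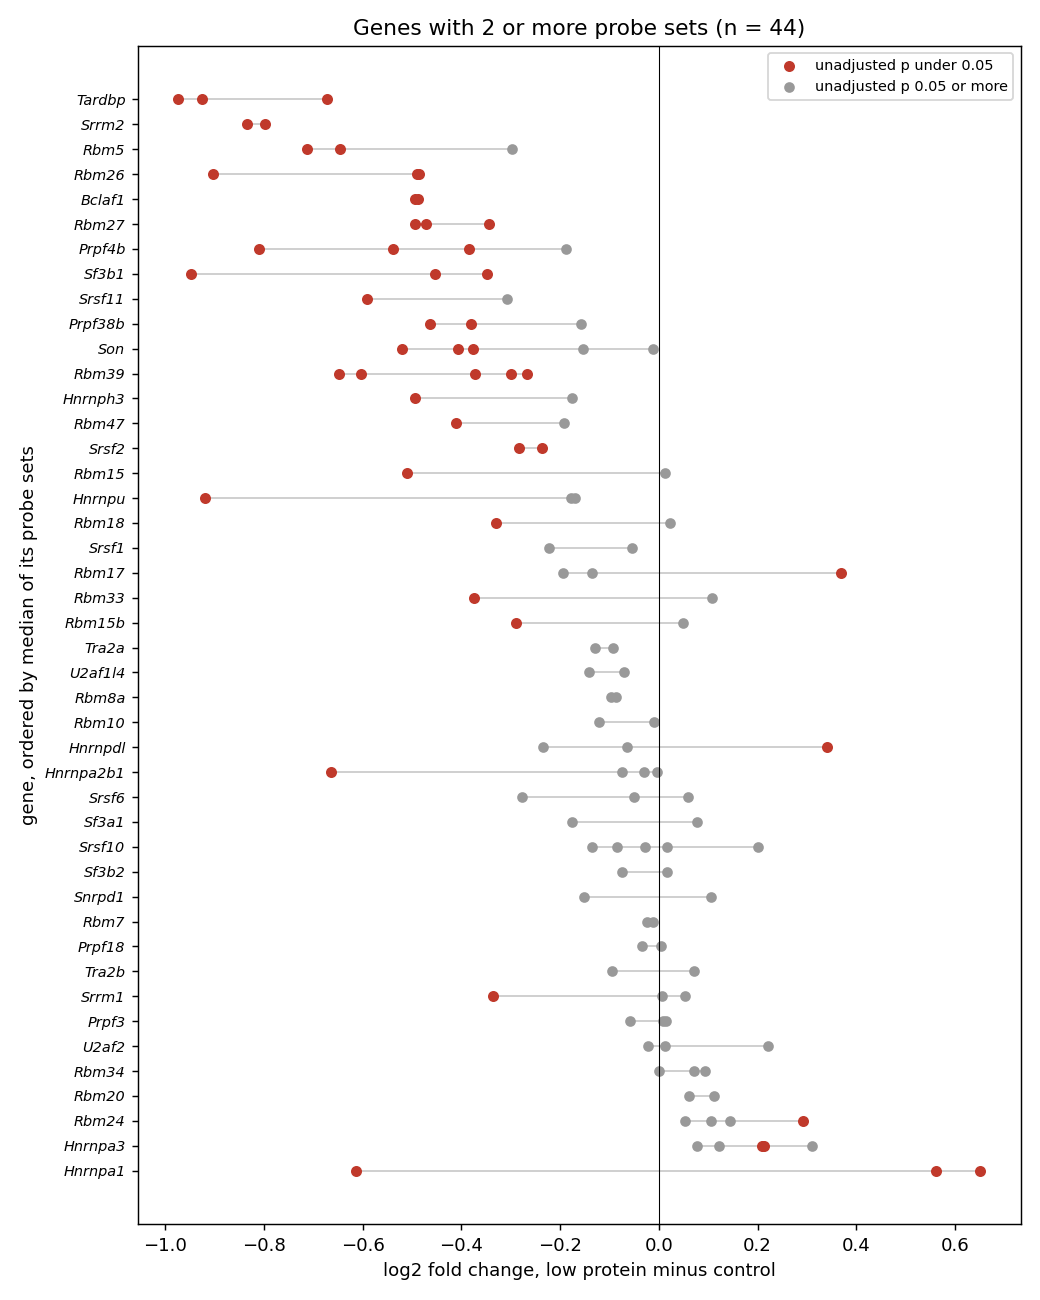
Log2 fold change of every probe set of the 44 member genes with more than 1, a row per gene ordered by its median; red points have an unadjusted p under 0.05. Tardbp, Srrm2, Rbm26, Bclaf1, Rbm27, Sf3b1, Rbm39 and Srsf2 are red throughout and lower, while Hnrnpa1 has red points on both sides of 0.

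Agreement between probe sets of a gene was mixed. Of the 44 genes with several, 8 had every probe set lower at an unadjusted p under 0.05 (Bclaf1, Rbm26, Rbm27, Rbm39, Sf3b1, Srrm2, Srsf2 and Tardbp), 14 had some lower and the rest not past it, and 17 had none past it. The remaining 5, Hnrnpa1, Hnrnpa3, Hnrnpdl, Rbm17 and Rbm24, had at least 1 higher.

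Core snRNP genes, taken by the symbols Snrp, Sf3a and Sf3b, differed little apart from Sf3b1. Those symbols leave out snRNP proteins named Snrnp, such as Snrnp70 and Snrnp200, which are given with the other splicing genes. The 11 Snrp probe sets, which read the Sm ring proteins and the U1 and U2 proteins, had a median of 0.02, and 1 was higher and none lower at an unadjusted p under 0.05. That 1 was Snrpd2, an Sm protein, at 9.64, 9.43 and 9.50 against 9.64, 9.97 and 10.10 (0.38, SE 0.131, adjusted p = 0.233), where low-protein replicate 1 lay just under the highest control. Snrpa, a U1 protein, had -0.30 (interval -0.62 to 0.01), Snrpe 0.14 (-0.08 to 0.37) and Snrpd1 -0.15 (-0.37 to 0.07) at its brighter probe set. The intervals of the 11 reached from -0.62 to 0.68, so falls as large as those fitted for the 3 Tardbp probe sets lie outside them. Smaller falls, such as those fitted for Hnrnpm (-0.39) and Srsf2 (-0.28 and -0.24), lie inside the intervals of Snrpa and Snrpa1 (-0.53 to 0.22).

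Sf3b1, the largest SF3B subunit and a clamp on the branch point, was lower at all 3 probe sets while the other SF3 subunits were not. At 1382691_at it read 5.71, 5.76 and 5.08 against 4.55, 4.85 and 4.31 (-0.95, SE 0.201, adjusted p = 0.0982), and without control replicate 3 it passed (-1.16, adjusted p = 0.046, 0.046 to 0.254 over the alternatives). The mean of 1382691_at, 5.04, lay just below that of the median probe set, 5.08. At 1390234_at Sf3b1 read 9.91, 10.23 and 10.01 against 9.61, 9.68 and 9.50 (-0.45, SE 0.109), and 1389840_at had -0.35, both without overlap. The other 10 probe sets, of Sf3a1 to Sf3a3 and Sf3b2 to Sf3b6, ran from -0.18 to 0.18 and none reached an unadjusted p under 0.05. Sf3b5 read 9.44, 9.30 and 9.34 against 9.47, 9.55 and 9.59 (0.18, interval -0.02 to 0.38), Sf3b2 had -0.07 at its lower probe set, and Sf3a1 had -0.18 (-0.48 to 0.13).

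Among the Prpf genes, which act mostly in the tri-snRNP and in spliceosome activation, 7 of 19 probe sets (36.8%) were lower and none higher at an unadjusted p under 0.05. The kinase gene Prpf4b was lower at 3 of 4 probe sets, at -0.38, -0.54 and -0.81, and at 1382646_at it read 6.93, 7.00 and 7.13 against 6.57, 6.74 and 6.61. Prpf38b was lower at 2 of 3, led by 1379691_at with 7.31, 7.37 and 7.25 against 6.91, 6.73 and 6.89 (-0.46, SE 0.0913, adjusted p = 0.0858). Prpf39, a U1-associated protein, had -0.47, and Prpf8, the scaffold at the catalytic centre, had -0.26 (SE 0.1), both without overlap. Prpf3, Prpf4, Prpf6, Prpf18, Prpf19, Prpf38a and Prpf40b had no probe set past an unadjusted p under 0.05. The 6 probe sets of U2af1, U2af2 and U2af1l4, the 3' splice site binding proteins, had a median of -0.05 and none reached it either, with U2af1 at -0.10, U2af1l4 at -0.14 and U2af2 at 0.22 at their probe sets of smallest p.

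Set against each other, regulators (Srsf, Hnrnp and Rbm, 111 probe sets) and core snRNP subunits (Snrp, Sf3a and Sf3b, 24) did not separate cleanly by diet in their difference. The regulators were grouped by gene symbol, and 60 of the 111 are of the heterogeneous Rbm genes. Those include Rbm26 and Rbm27, described above as acting in RNA decay, with 3 lower probe sets each. The medians of regulators and core were -0.08 and 0.0049. At an unadjusted p under 0.05, 31 regulators were lower and 8 higher, 27.9% and 7.21%, and 3 core probe sets were lower and 1 higher, 12.5% and 4.17%, where all 3 lower ones were Sf3b1. The mean over regulators minus the mean over core, relative to controls, was 0.05, -0.04 and -0.01 on control arrays 1 to 3 and -0.07, -0.01 and -0.07 on low-protein arrays 1 to 3. Low-protein replicate 2 lay inside the control range. The difference of the medians, -0.09, was -0.02 when Prpf and U2af genes were counted as core and -0.10 with the Snrp genes alone. It was -0.14 over probe sets brighter than the median one, and also with 1 probe set per gene. The Prpf mean was -0.23 to -0.17 on low-protein arrays and -0.04 to 0.04 on controls. The Sf3 mean, which holds the 3 Sf3b1 probe sets, was -0.20 to -0.05 and -0.02 to 0.02, and the Snrp mean, at -0.01 to 0.02 and -0.04 to 0.07, overlapped.

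**Figure D4:**
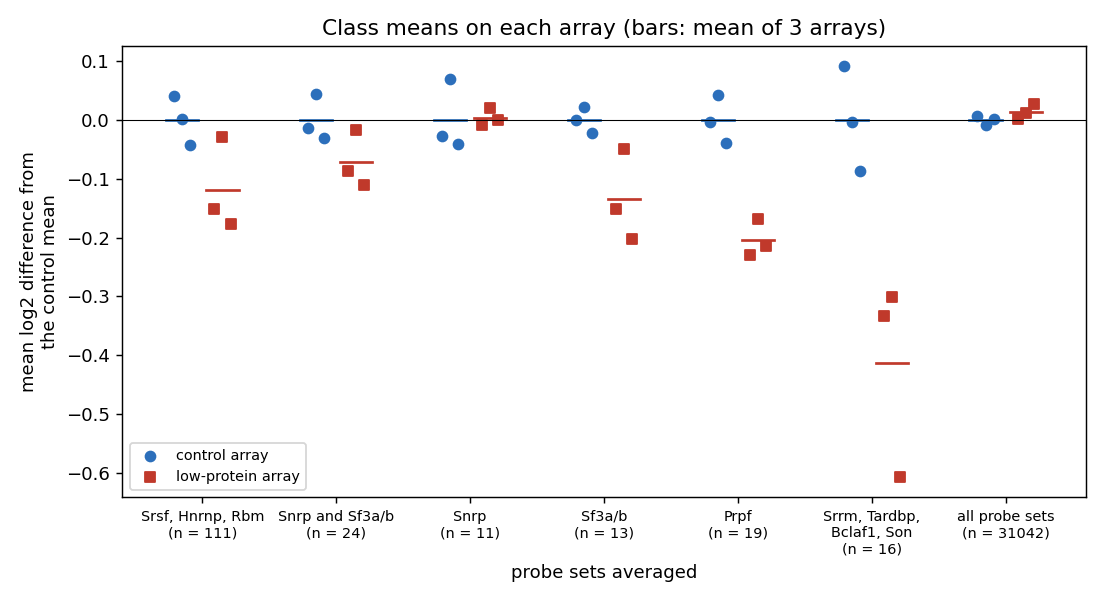
Mean log2 difference from the control mean on each array, for classes of member probe sets and for all probe sets; circles are control arrays, squares low-protein arrays and bars the mean of 3. The groups separate for Sf3a/b, for Prpf and for Srrm, Tardbp, Bclaf1 and Son, the last with low-protein arrays from -0.61 to -0.30, and overlap for Snrp and for Snrp with Sf3a/b, while for Srsf, Hnrnp and Rbm low-protein replicate 2 (-0.03) lies above the lowest control (-0.04).

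Splicing genes outside the member families were also lower more often than probe sets at large. Of 143 listed genes 127 were measured by 208 probe sets, of which 47 were lower and 8 higher at an unadjusted p under 0.05 (22.6% and 3.85%, against 7.58% and 7.83% of all probe sets). This list was not matched for brightness, and all probe sets brighter than the median one gave 12.4% and 8.79%. It was drawn up with earlier results of these data known. After adjustment 2 fell, both of Akap8l, a nuclear matrix protein that binds hnRNPs, at -1.03 (SE 0.093, adjusted p = 0.00877) and -0.85 (SE 0.106, adjusted p = 0.0388). Of the listed genes next in order of p, the nuclear matrix protein gene Matr3 had -0.76 (adjusted p = 0.0534), the SR-related Srek1 -0.76 (0.0551) and the U1-associated Luc7l2 -0.50 (0.0666). Those are their probe sets of smallest p. Others had -0.55 and -0.0053 for Srek1 and -0.04 for Matr3. Of 13 probe sets of SR kinases and phosphatases, 3 were lower and 1 higher at an unadjusted p under 0.05. The lower ones were of Clk1 (-0.54), Clk4 (-0.42) and Dyrk1a (-0.28). The higher one was of Srpk3 (0.38), whose other probe set had -0.0032. Clk2 and Clk3 had -0.26 and -0.18 and did not reach it. The Sm-like and SMN genes, which build and recycle snRNPs, had 3 of 20 probe sets higher and none lower, all 3 of them Lsm genes: Lsm3 at 0.39, Lsm8 at 0.37 and Lsm7 at 0.35. A second Lsm7 probe set had -0.07. The other U snRNP proteins had 7 of 28 lower (25%) and 1 higher, against 12.5% lower among the 24 core probe sets and 27.9% among regulators. By that share the contrast of regulators with core depends on which snRNP genes count as core. Their median, -0.01, lay nearer that of core (0.0049) than that of regulators (-0.08). Lower probe sets included the minor spliceosome gene Snrnp48 (-0.58 and -0.56), the U1 protein gene Snrnp70 (-0.32) and the helicase Snrnp200 (-0.26). The rest were of Smndc1, Sart3 and Sf1, at -0.32, -0.26 and -0.20.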

How the data were processed

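Liver RNA of 6 samples was hybridised to Affymetrix rat arrays. The authors deposited a single intensity for each probe set on each array; the submitters' processing notes name RMA (version not given in the sources used here), a method that equalises signal distributions between arrays. The values, 3.61 to 21668, are on a linear scale, so log2 was taken. Of 31099 probe sets, 57 control probe sets were left out and 31042 tested without a filter. Symbols come from the platform annotation (20826 probe sets with 1, 436 with several, 9780 with none); the gene IDs of all 180 members matched RefSeq (GRCr8), with 0 symbols changed. Arrays carry no read depth, and 3 per diet limit the precision.

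Diets were compared with limma 3.58.1 in R 4.3.3 (lmFit, eBayes, 4 residual and 8.38 total degrees of freedom), with p-values adjusted by Benjamini-Hochberg across the whole table (threshold 0.05), and the procedure was tested on simulated data. Members and lists were chosen with earlier results of these data known. Named genes are members past the threshold, the 4 genes of smallest p in each of 9 classes, and genes with probe sets past an unadjusted p under 0.05 in both directions (33 genes, 35 probe sets); other members, their further probe sets and the printed promoters were chosen after their values were seen. Alternatives were other prior variances, centring, quantile normalization, brightness filters, array weights, a block for replicate number, leaving out single arrays, 1 probe set per gene and other definitions of the core. Figures used matplotlib 3.10.9.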

Additional observations from a re-analysis of the deposited data

How the results depend on the processing

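Among named probe sets, 34 of 35 kept their direction in every alternative run; U2af1 ran from -0.17 to 0.01 over the left-out arrays, turning without low-protein replicate 3 (0.011). The lower count of 52 was 23 and the higher count of 10 was 5 with 1 probe set per gene, which tests fewer probe sets. The higher count was 6 with the filter at the median, 15 with 75th-percentile centring, 12 with quantile normalization, and 5 to 11 over the left-out arrays. Members called by limma were 3 with a robust prior variance, 2 with array weights, and 0 with an intensity-dependent prior variance, quantile normalization, the 25th-percentile filter, the replicate block and 1 probe set per gene, where 52, 53, 50, 49 and 23 were lower at an unadjusted p under 0.05. Over the left-out arrays they ran from 0 to 4, the 4 (Hnrnpu, Tardbp, Hnrnpa1 and Sf3b1) without control replicate 3. Calls among all probe sets, 41 as reported, were 103 with a robust prior variance, 102 with array weights, 78 with median centring, 26 with 1 probe set per gene and 16 to 109 over the left-out arrays. The share of calls that were higher was 26.8% as reported, against 16.7% after centring on medians and 40.7% after centring on 75th percentiles. The core median was 0.054 with 75th-percentile centring and -0.060 with Prpf and U2af as core. Regulators minus core was -0.14 with the filter at the median or 1 probe set per gene, and -0.024 with Prpf and U2af as core. The replicate number showed no sign of pairing the arrays, though 3 per diet cannot exclude it. Same-numbered arrays correlated at -0.087, -0.027 and -0.102 in their deviations, and no control array correlated best with the low-protein array of its own number. The replicate block left 6 calls among all probe sets, in a fit with fewer residual degrees of freedom. Causes of these shifts were not tested.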

Other observations

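Splitting between probe sets of 1 gene was not confined to the member families. These genes were chosen after their values were seen. Pnn, a speckle protein tied to the exon junction complex, had log2 fold changes of -1.46, -0.50, -0.24 and -0.14 at its 4 probe sets. The first had an unadjusted p = 0.00124 and the last 0.268 (limma). At the first, low-protein replicates 1 to 3 read 6.27, 6.31 and 5.03, where controls read 7.30, 7.21 and 7.49. The last had a mean of 3.72, below the 25th percentile of all probe sets (3.77). Matr3 had -0.76 at 1 probe set and -0.04 at its other. Akap8l had -1.03, -0.85 and -0.84 at its 3, which lay close together. Where on each transcript these probe sets lie was not analysed here.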
